A study of Mus musculus with 2 samples.

Results

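The MEF2 transcription factor family of the mouse has 4 members, Mef2a, Mef2b, Mef2c and Mef2d, and the open chromatin around all 4 genes is described here for adipocytes grown in culture. The members were taken by name from the GENCODE M21 annotation of the GRCm38 (mm10) genome, 4 of its 21938 protein-coding genes. Each gene body was extended by 100 kb on each side, and every DNase-seq peak and hotspot overlapping that window was taken. The windows held 109 of the 133695 peaks of replicate 1 and 189 of the 216556 peaks of replicate 2. DNase-seq maps the stretches of genome that the nuclease DNase I can reach and cut, and it measures neither the expression of a gene nor the binding of a named factor. The study comprised 2 libraries, labelled as biological replicates of 1 group. They came from adipocytes formed in vitro by 3T3-L1, a mouse preadipocyte line, at day 8 of differentiation. The labels name the strain C57BL/6J, while 3T3-L1 is usually traced to Swiss mice, and the strain is left unsettled here. There was no undifferentiated or other control group among the libraries analysed here, so the genes were compared with each other and with all other genes, and no p-value was computed. The labels did not say whether the replicate cultures had been differentiated separately, and both carried the same donor record, so the spread between them may be partly technical.

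MEF2 proteins are MADS-box transcription factors that bind an A- and T-rich element, the MEF2 box, as dimers and are best known as regulators of skeletal and cardiac muscle, neurons, blood vessels and lymphocytes. Class IIa histone deacetylases hold them in a repressed state, and calcium-dependent kinases release them by sending those deacetylases out of the nucleus, while MAP kinases and the phosphatase calcineurin act on MEF2 itself or its partners. In fat and muscle, MEF2A and MEF2D are known to bind the promoter of Slc2a4, which encodes the insulin-responsive glucose transporter GLUT4.

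The label was checked against marker genes: 9 of 10 adipocyte markers had a peak of both replicates within 1000 bp of a start site, against 57.2% of all protein-coding genes, and the exception, Lep, had a peak of replicate 2 only. The same held for 4 of 5 fibroblast or preadipocyte markers, 3 of 8 skeletal muscle markers, 2 of 5 neuron markers, 1 of 5 lymphoid and blood markers, 0 of 4 cardiac muscle markers and 0 of 4 endothelial markers. The skeletal muscle markers with such a peak were Ckm, Acta1 and Actn3, and Myod1, Myog, Myf5 and Myf6, the factors that define the lineage, had no promoter peak in either replicate. Replicate 2 had 1.62 times as many peaks as replicate 1, and regions found in replicate 2 alone were therefore common. Most results use shared peaks, meaning merged regions that held a peak of each replicate, of which there were 117590 in the genome.

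The 4 genes lay in very different surroundings. Mef2d had 44 peaks in replicate 1 and 79 in replicate 2, of which 41 merged regions were shared. Mef2b had 37 and 65 peaks, with 28 shared regions. Mef2a had 24 and 40 peaks, with 22 shared regions. Mef2c, in the longest window of the family, had 4 and 5 peaks, with 4 shared regions. The 4 windows together held 197 merged regions, and 95 of them were shared, 9 were found in replicate 1 only and 93 in replicate 2 only.

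**Figure D1:**
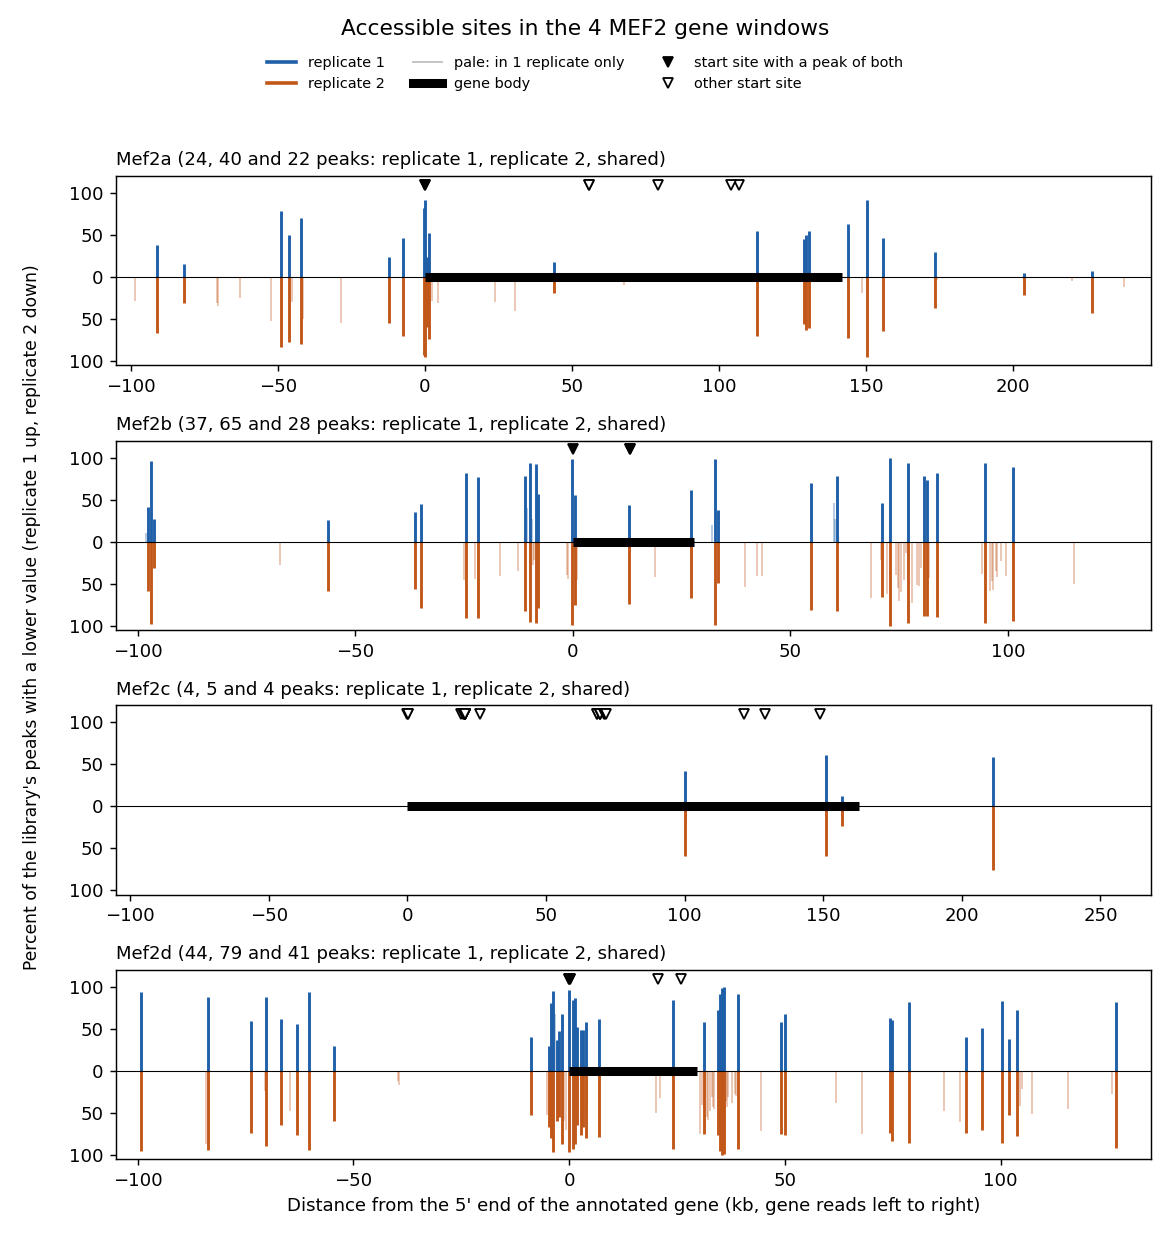
Peaks in the 4 gene windows, by distance in kb from the 5′ end of each gene on the x axis, with replicate 1 drawn upwards and replicate 2 downwards as the percent of that library's peaks with a lower value. Solid bars are shared peaks, pale bars peaks of 1 replicate, black bars gene bodies, and filled or open triangles start sites with or without a peak of both replicates. Mef2d has a dense group of bars at its 5′ end and another past its 3′ end, while the Mef2c window is empty from its left edge to about 100 kb into the gene.

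Scaled to window length, Mef2d had 17.8 shared peaks per 100 kb, a density above that of 95.1% of all protein-coding genes. Mef2b had 12.3 per 100 kb, above 77.9% of genes, and Mef2a had 6.44 per 100 kb, above 41.0%. Mef2c had 1.10 per 100 kb, above 13.9% of genes. The median over all genes was 7.70 shared peaks per 100 kb, so Mef2d and Mef2b lay above it and Mef2a and Mef2c below it. Over the 2 replicates taken separately, peak density averaged 26.8 ± 10.8 per 100 kb at Mef2d, 22.4 ± 8.69 at Mef2b, 9.37 ± 3.31 at Mef2a and 1.24 ± 0.195 at Mef2c (SD, n = 2). The order of the 4 genes was the same in each replicate. Mef2d had 19.2 peaks per 100 kb in replicate 1 and 34.4 in replicate 2, and Mef2b had 16.2 and 28.5. The ranges of these neighbours in the order overlapped across libraries, although Mef2d was the denser within each. Both the ranges and the SD include the longer peak list of replicate 2. Mef2a had 7.02 and 11.7 and Mef2c had 1.10 and 1.38, and neither overlapped the next gene in the order.

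**Figure D2:**
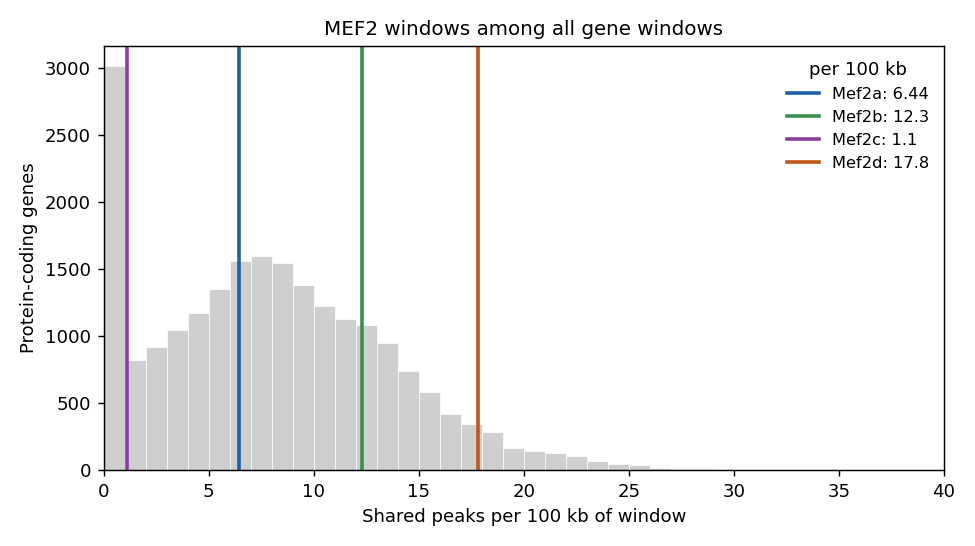
Number of protein-coding genes on the y axis by shared peaks per 100 kb of window on the x axis, over all 21938 genes (7 genes above 40 are not drawn). The coloured lines mark Mef2c at 1.10, Mef2a at 6.44, Mef2b at 12.3 and Mef2d at 17.8 per 100 kb.

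Since the Mef2b and Mef2d genes are short, most of their windows is flank, and the gene bodies were also taken alone. The Mef2d body of 29.7 kb had 26.9 shared peaks per 100 kb, above 89.2% of genes, and the Mef2b body of 27.8 kb had 10.8, above 66.2%. The Mef2a body of 142 kb had 5.65 per 100 kb, above 47.3% of genes, and the Mef2c body of 163 kb had 1.84, above 35.3%. The order of the genes was thus the same with and without the flanks. Hotspots, the broader accessible domains, covered 7.59% of the Mef2d window in replicate 1 and 13.7% in replicate 2, and 6.33% and 12.5% of the Mef2b window. They covered 1.94% and 4.13% of the Mef2a window and 0.294% and 0.410% of the Mef2c window, against 1.66% and 2.80% of the genome.

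Peak values, which run from 1 to 150 and are the authors' own, served here for ranking alone, as the percent of a library's peaks with a lower value. Shared peaks of the 4 windows had a median rank of 62.1% in replicate 1 and 76.6% in replicate 2, against 53.4% and 70.8% for all shared peaks of the genome. Those in the Mef2b window ranked highest, at 77.5% and 85.0%, and those of Mef2d followed at 68.3% and 78.6%. Shared peaks of the Mef2c window had medians of 50.1% and 59.1%, and none of the 4 stood above 90% of the peaks of either library. Of all shared peaks of the genome, 10.5% did so in replicate 1 and 17.3% in replicate 2, so none among 4 says little. Mef2a was close to Mef2c in replicate 1, at 48.5%, and above it in replicate 2, at 65.2%. Peaks of replicate 1 had a partner in replicate 2 in 99 of 109 cases, or 90.8% (exact binomial 95% interval 83.8% to 95.5%), against 90.3% over the genome. Peaks of replicate 2 had a partner in 95 of 189 cases, or 50.3% (42.9% to 57.6%), against 55.5% over the genome. Mef2b had the lowest shares of the family, 30 of 37 peaks of replicate 1 and 28 of 65 peaks of replicate 2, with an interval in replicate 2 of 30.8% to 56.0% that includes the genome share. The intervals treat peaks as independent and cover counting error only.

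The 4 genes have 55 annotated transcripts that begin at 43 distinct start sites, and 9 of these sites (20.9%) had a peak of both replicates within 1000 bp, against 48.6% of the 93513 start sites of all protein-coding genes. The low share came from Mef2c, which has 27 of the 43 sites and had such a peak at none of them. Mef2b had a peak of both replicates at 3 of 3 sites, Mef2d at 4 of 6 and Mef2a at 2 of 7. Counted by gene, 3 of the 4 members had an open promoter, against 57.2% of protein-coding genes. Of the 31 sites of transcripts annotated as protein-coding, 7 had a peak of both replicates (52.3% over the genome), as did 2 of the 12 sites of other transcripts (43.5% over the genome).

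**Figure D3:**
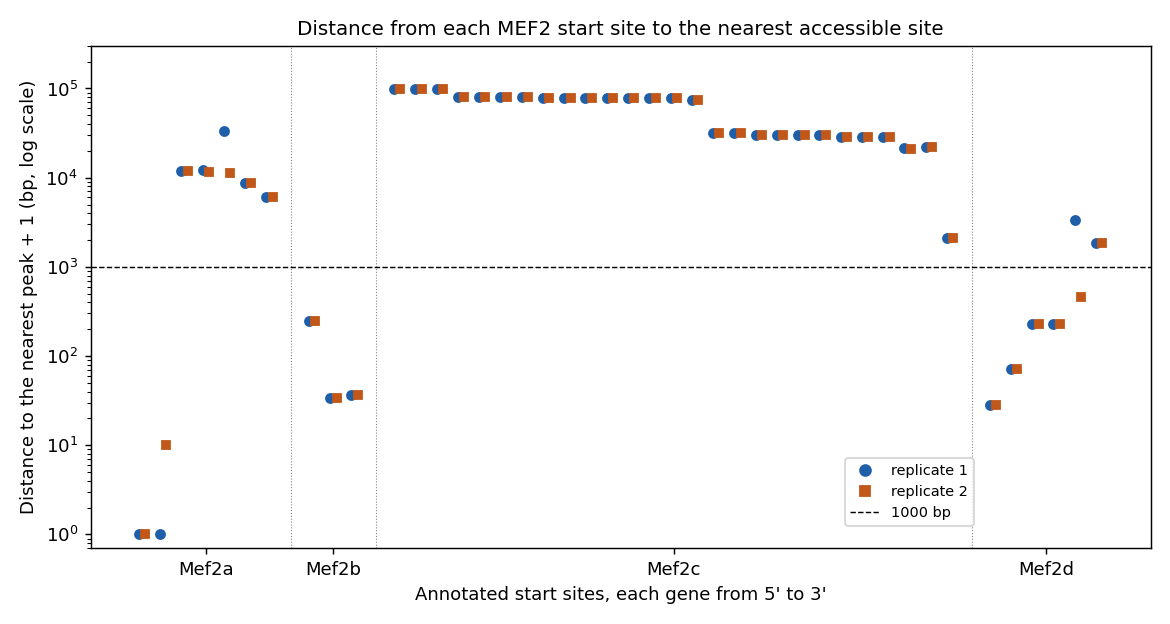
Distance from each of the 43 start sites to the nearest peak, in bp plus 1 on a log scale, with sites in order from 5′ to 3′ within each gene, replicate 1 as circles and replicate 2 as squares. The dashed line marks 1000 bp. All 27 Mef2c sites lie above the line and all 3 Mef2b sites below it, and 1 Mef2d site falls below it in replicate 2 only.

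The open sites were rich in CpG, the usual base composition of broadly used mammalian promoters. In the 500 bp around the 9 open sites the median GC content was 71.6% and the median ratio of observed to expected CpG was 0.88 (range 0.49 to 1.02). Around the other 34 member sites the medians were 44.9% and 0.37 (range 0.09 to 0.92). Over all protein-coding genes the medians were 62.2% and 0.77 for open sites and 49.6% and 0.26 for the rest, and members and genome thus differed in the same direction. Sites of 1 gene lie close together and share much of their 500 bp.

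Mef2a, on the minus strand of chromosome 7 (67231163 to 67372858), encodes a member found in most tissues and studied chiefly in heart and skeletal muscle. Of its transcripts, 6 begin at 67372858, inside a shared peak (67372816 to 67372985) with values of 99 in replicate 1 and 134 in replicate 2. These values ranked above 92.1% and 94.5% of the peaks of each library and were the highest in the window, tied in replicate 2 with the Lysmd4 promoter peak. The short transcript Mef2a-207 begins at 67372827, at 0 and 9 bp from a peak. The other 5 start sites, at 67266162, 67268714, 67293649, 67316920 and 67316965, lay between 6057 and 33544 bp from a peak of replicate 1 and between 6057 and 11740 bp from a peak of replicate 2. Accessibility at Mef2a was therefore found at the 2 start sites of the 5′ end and at none of the 5 sites further into the gene. A MEF2 box crosses the start site at 67372858, from 2 bases before it to 7 bases past it. It is shown because it lies in the strongest peak of the gene. On the minus strand of GRCm38, chr7:67372841-67372870, with the box in capitals, it reads:
Mef2a start site: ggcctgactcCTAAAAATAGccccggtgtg
A second shared peak, chr7:67373096-67373245, was centred at −313 bp from the start and had values of 79 and 130. It holds a GC box, the element GGGCGG bound by SP-family factors, in capitals here on the gene's strand:
Mef2a upstream peak: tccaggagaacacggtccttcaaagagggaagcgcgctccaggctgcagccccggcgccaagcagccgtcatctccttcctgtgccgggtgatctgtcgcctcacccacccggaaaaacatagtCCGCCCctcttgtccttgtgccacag

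Beyond the promoter, the Mef2a gene had shared peaks in its introns near both ends. One at 67371436 to 67371605, 1.31 kb into the gene, had values of 47 and 95, and one at 67259956 to 67260105 had values of 49 and 91. The annotated Lysmd4 gene overlaps the 3′ part of Mef2a, and the shared peaks near that end, the latter included, lie inside both genes. Which of these genes they serve cannot be told apart from accessibility. Between 67260030 and 67329050 lay the longest stretch without a shared peak, 69.0 kb. Upstream of the gene, intergenic shared peaks lay at −7.5, −12.3, −81.8 and −91.0 kb from the start. A closer group of 3 lay at −42.2, −46.2 and −49.0 kb. The one at −49.0 kb (67421776 to 67421945) had values of 74 and 110 and was the strongest distal peak of the window, and it sat in the widest hotspot there in replicate 2, of 1329 bp. The one at −42.2 kb had 63 and 104, and the one at −46.2 kb had 46 and 100. All 3 had Mef2a as the nearest gene, as had 11 of the 22 shared peaks. The only other protein-coding gene starting in the window was Lysmd4, open at 9 of its 9 start sites, and its promoter peak (97 and 134) was nearly as strong as that of Mef2a.

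Mef2b, on the plus strand of chromosome 8 (70139711 to 70167488), encodes the most divergent member and is best known from germinal centre B cells. Transcript Mef2b-205 begins at 70139711, and the transcripts Mef2b-201 to Mef2b-204 begin within its span, at 70152778 and 70152781. The 2 downstream sites lay 33 and 36 bp from the same shared peak, chr8:70152596-70152745, in both replicates. That peak had values of 41 in replicate 1 and 97 in replicate 2, above 43.3% and 74.5% of the peaks, so in replicate 1 it was weaker than the median peak. It was the only shared peak of the 28 whose nearest start site is one of Mef2b. It carries 2 GC boxes, in capitals on the plus strand:
Mef2b promoter peak: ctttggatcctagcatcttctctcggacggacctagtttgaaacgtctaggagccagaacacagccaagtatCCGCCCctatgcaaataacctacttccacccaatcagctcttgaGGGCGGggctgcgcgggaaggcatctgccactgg
The upstream site at 70139711 lay between a pair of shared peaks. The nearest peak of replicate 1, 245 bp away, was the one inside the gene, and the nearest of replicate 2, 246 bp away, was the one before the site. The peak inside the gene (70139956 to 70140225) had values of 50 and 98. The peak before the site (70139316 to 70139465) was much stronger, with values of 125 and 146, above 99.0% and 98.9% of the peaks. It is centred at −108 bp from a start site of Borcs8, a subunit of a complex that positions lysosomes. Which of these genes the peaks serve cannot be told apart from accessibility.

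The high density of the Mef2b window lay in its neighbours. Start sites of 12 other protein-coding genes fall in it, and 10 of them had a peak of both replicates. Ncan, a proteoglycan gene of the nervous system, and Tm6sf2, a liver and gut gene of lipoprotein secretion, had none. Of the 28 shared peaks, 14 (50%) were promoter peaks, against 21.0% of all shared peaks, and 27 were nearest to another gene's start. The strongest were the promoter peaks of Slc25a42, a mitochondrial coenzyme A transporter (130 and 149), Borcs8 (125 and 146, described above) and Tmem161a (122 and 146). The gene body itself held 3 shared peaks, the 2 described above and one with values of 55 and 87 (70166836 to 70167005). Restricting the flanks to 20 kb left 10 of the 28 shared peaks, in a much shorter window, so this count does not show a lower density.

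Mef2c, on the plus strand of chromosome 13 (83504034 to 83667080), encodes the member needed for heart and vessel formation and active in skeletal muscle, neurons and B cells. None of its 27 start sites had a peak within 1000 bp in either replicate. The 3 sites at the 5′ end, at 83504034, 83504206 and 83504240, lay 99942, 99770 and 99736 bp from the nearest peak of both replicates. Of the sites between 83523473 and 83524920, 11 in all, the nearest peak was 79056 to 80503 bp away, and for the site at 83530138 it was 73838 bp away. The 9 sites from 83572348 to 83575677 were 28299 to 31628 bp from a peak. The 3 sites near the 3′ end were nearer, at 21478 and 21018 bp in replicates 1 and 2 for 83625603, 21915 bp for 83633061 and 2088 bp for 83652888. The sites differed in base composition: the 8 sites from 83524613 to 83524920 had ratios of observed to expected CpG of 0.84 to 0.92, in the range of the open member promoters. Among the 106 protein-coding genes with at least 20 start sites, 9 (8.49%) had none with a peak of both replicates. Over all protein-coding genes, whatever their number of start sites, 57.2% had an open promoter, so a gene without one was common.

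All 4 shared peaks around Mef2c had Mef2c as the nearest gene, and no other protein-coding gene starts in the window. The strongest on average was intergenic, 47.9 kb past the 3′ end in a hotspot of 315 and 472 bp, with values of 52 and 99 (83715096 to 83715265). The peak at 83654976 to 83655125, near the last start site, had values of 54 and 78 and held an AP-1 element (TGANTCA) and a C/EBP element (TTGCNNAA). The weakest, at 83660856 to 83661005, had 24 and 50. The remaining one (83603976 to 83604125), in an intron 100 kb into the gene, had values of 40 and 78, above 41.7% and 59.1% of peaks. It ended the longest empty stretch of the family, 200 kb from the window's edge, and a further peak of replicate 2, with a value of 48, lay just past it. It is shown with the 10 bases before it because it holds a pair of identical MEF2 boxes, in capitals, 22 bp apart from start to start, the first beginning 1 base before the peak. On the plus strand, chr13:83603966-83604125 reads:
Mef2c intron peak: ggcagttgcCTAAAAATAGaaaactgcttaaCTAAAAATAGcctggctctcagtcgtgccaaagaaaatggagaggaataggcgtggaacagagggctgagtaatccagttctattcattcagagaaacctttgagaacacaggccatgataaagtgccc

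Mef2d, on the plus strand of chromosome 3 (88142372 to 88172086), encodes a member found in most tissues. Its 4 open start sites, at 88142372, 88142416, 88142572 and 88142574, lay 27, 71, 227 and 229 bp from a shared peak, chr3:88142196-88142345, in both replicates. That peak had values of 110 and 139, above 95.8% and 96.5% of the peaks. The start site of the non-coding transcript Mef2d-205, at 88162960, lay 455 bp from a peak of replicate 2 with a value of 69 and 3316 bp from any peak of replicate 1. The start site of Mef2d-207, at 88168252, lay 1827 bp from a peak in both replicates. The promoter peak had the highest GC content printed here, 76.0%, and holds 2 GC boxes, in capitals on the plus strand:
Mef2d promoter peak: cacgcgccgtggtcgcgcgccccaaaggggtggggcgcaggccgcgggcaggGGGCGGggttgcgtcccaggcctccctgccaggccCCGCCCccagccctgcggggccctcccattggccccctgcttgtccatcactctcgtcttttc

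Around this promoter lay the densest group of shared peaks of the family. From −8.97 kb to 6.87 kb from the 5′ end there were 15 shared peaks within a stretch of 20 kb, against at most 6 in any such stretch at Mef2a or Mef2b and 2 at Mef2c. In replicate 2 a hotspot of 7775 bp (88137008 to 88144782) joined 14 peaks, longer than nearly all hotspots of that library, and in replicate 1 the same ground held separate hotspots of 2432 and 1975 bp. The strongest upstream peak, at −3.83 kb from the start (88138416 to 88138665), had values of 108 and 140. The intronic peak chr3:88145116-88145285 had 45 and 99 and is shown because it was the only shared peak of the 4 windows with a DR1 element (a direct repeat of receptor half-sites with a base between them, 1 base in each half-site left free), the type of site bound by PPARG with RXR, the central receptor of adipocyte differentiation. The element was found in 0.543% of all shared peaks of the genome, and its match is in capitals on the plus strand:
Mef2d intron peak: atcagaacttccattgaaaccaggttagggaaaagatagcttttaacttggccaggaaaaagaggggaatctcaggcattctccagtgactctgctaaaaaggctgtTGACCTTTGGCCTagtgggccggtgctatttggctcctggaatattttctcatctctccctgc

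The strongest peaks of the Mef2d window lay past its 3′ end, not at its promoter. In both replicates a hotspot of 1699 bp (88176783 to 88178481), with its edge 4.7 kb past the end of the gene, joined 4 peaks. The peak chr3:88178056-88178205 had values of 132 and 146, above 99.7% and 98.9% of the peaks, and chr3:88177636-88177805 had 123 and 148, above 98.7% and 99.5%. Both stood above the promoter peak in each library. Another peak of this hotspot (88177196 to 88177365) had 97 and 135. None has a protein-coding start site within 1000 bp, and the nearest is that of Mef2d-207. Over the 10 kb past the 3′ end there were 21 merged regions, of which 6 were shared and 15 were found in replicate 2 only, with values of 53 to 97. The first sequence holds a CArG box, the element of SRF, the other MADS-box factor of muscle genes. This was the only CArG box in the 95 shared peaks of the 4 windows (1.05%), against 0.793% of all shared peaks. The same peak also holds a GC box, which is left unmarked. Capitals mark the CArG box in the first sequence and a C/EBP element in the second, both on the plus strand:
Mef2d downstream peak 88177636: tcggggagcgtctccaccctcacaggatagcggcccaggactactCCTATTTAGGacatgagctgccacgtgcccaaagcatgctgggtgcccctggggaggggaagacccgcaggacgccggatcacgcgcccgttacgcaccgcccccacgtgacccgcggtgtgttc
Mef2d downstream peak 88178056: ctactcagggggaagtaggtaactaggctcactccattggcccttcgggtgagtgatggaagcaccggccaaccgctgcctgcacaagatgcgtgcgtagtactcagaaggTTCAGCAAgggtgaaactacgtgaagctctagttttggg

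The remaining distal peaks of the Mef2d window were spread over both flanks. Of the 41 shared peaks, 24 were nearest to a Mef2d start and 9 to that of Rhbg, an ammonium transporter gene of kidney and liver whose own start site had no peak of both replicates. Gpatch4, Iqgap3, Naxe and Ttc24 had open promoters, and the strongest of these peaks was at Gpatch4 (104 and 135). Another intergenic peak, at 88181496 to 88181645, had 99 and 129. An intronic peak near the 3′ end of the gene (88166276 to 88166425) had 83 and 130.

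The genome sequence of the 4 windows contains 293 MEF2 boxes, searched on both strands with the looser form of the consensus, and 31 of the strict form. Most lay outside accessible regions: 3 of the 293 fell within shared peak regions, 2 within peaks of replicate 1, 3 within peaks of replicate 2 and 5 within hotspots of each replicate. Shared peak regions covered 1.03% of the Mef2a window, 2.17% of Mef2b, 0.171% of Mef2c and 3.22% of Mef2d. With so little sequence covered, the low count does not by itself set the boxes apart, and enrichment or depletion was not tested. Mef2c had 141 boxes in its window, Mef2a 96, Mef2d 33 and Mef2b 23, counts not scaled to length. In the same order, these windows were 363, 342, 230 and 228 kb long and had GC contents of 38.5%, 42.4%, 49.8% and 50.2%. All 3 boxes in shared peak regions were of the strict form. Mef2a and Mef2c carried the boxes shown above, and at Mef2d the box lay from −1579 to −1570 bp of the start, inside a replicate 2 peak with a value of 118. The replicate 1 peak of that merged region, with a value of 61, did not overlap the box. On the plus strand, chr3:88140783-88140812 reads, with the box in capitals:
Mef2d upstream box: tggggaagcaCTAAAAATAGaggccacaag
The core of this box is the same as that at the Mef2a start site and as both boxes in the Mef2c intron.

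Within the central 150 bp of the shared peaks, 2 of 95 (2.11%) in the 4 windows held a MEF2 box, against 1.53% of all shared peaks and 2.81% of flanking sequence 1000 bp away outside any accessible region. For the strict form the figures were 2.11%, 0.522% and 0.273%. With 2 peaks the share of the 4 windows could not be set apart from that of the genome. AP-1 elements were in 9 of the 95 (9.47%, against 8.94% of all shared peaks) and C/EBP elements in 8 (8.42%, against 11.9%). GC boxes were in 13 (13.7%, against 9.78%), the element CAGCTG bound by muscle and other bHLH factors in 12 (12.6%, against 12.8%) and the TEAD element GGAATG in 5 (5.26%, against 9.55%). The GC box depends on position: it was in 32.9% of all promoter peaks and 3.64% of distal ones. Promoter peaks made up 26.3% of the 95, against 21.0% of all shared peaks, and 7 of the 13 GC box peaks lay in the Mef2b window. The glucocorticoid receptor element was in 4 (4.21%, against 2.28%), 3 of them at Mef2a. The cyclic AMP response element TGACGTCA was in 0 of 95, against 0.469% of all. A match describes the letters of the genome and does not show that a factor was bound.

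The genes that act on or with MEF2 were for the most part open. Of 45 genes named in textbooks and reviews as repressors, coactivators, signalling enzymes, relatives or targets of MEF2, 36 (80.0%) had a peak of both replicates within 1000 bp of a start site, against 57.2% of all protein-coding genes. Their windows had a median of 10.5 shared peaks per 100 kb, against 7.70 for all genes, with a range of 0.394 to 19.9. The list was drawn up with earlier results of these data known, and broadly expressed genes are open in most cells, so the difference is given as a description.

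The repressors were open throughout. All 5, the class IIa deacetylases Hdac4, Hdac5, Hdac7 and Hdac9 and the calcineurin-binding protein Cabin1, had open promoters, with a median of 16.0 shared peaks per 100 kb. Hdac7 had 19.9 and Hdac5 had 18.2 per 100 kb, more than Mef2d, and Hdac9 had 3.74. Among the coactivators, 5 of 6 were open, with a median of 9.60 per 100 kb. Maml1, a Notch coactivator that also binds MEF2C, had 19.4 and Vgll4, a cofactor of TEAD, had 16.8. Vgll2, a cofactor restricted largely to muscle, had no promoter peak in either replicate and 3.40 per 100 kb.

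Of the 16 kinases, calcineurin subunits and calcium-dependent enzymes, 12 were open, with a median of 7.85 per 100 kb, close to that of all genes. The salt-inducible kinases Sik3, with 15.8, and Sik2, with 13.3, which phosphorylate class IIa deacetylases, had the highest densities. Camk4 and Prkd1, further kinases of this step known from neurons and muscle, had no promoter peak in either replicate, and Prkd1 had the lowest density of the list, 0.394 per 100 kb. Mapk11 and Camk1d had a promoter peak in replicate 1 only. Srf, the related MADS-box factor, was open with 11.1 per 100 kb.

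Of 17 target genes, 13 were open, with a median of 11.2 per 100 kb. Slc2a4 had 18.5 and Nr4a1, an immediate-early nuclear receptor, had 16.3. The targets without a peak of both replicates were all genes of muscle. Myog, Hrc and Smpx had no promoter peak in either replicate, and Myoz1 had one in replicate 2 only. Ckm, Des and Myom1, also genes of muscle, were open.

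**Figure D4:**
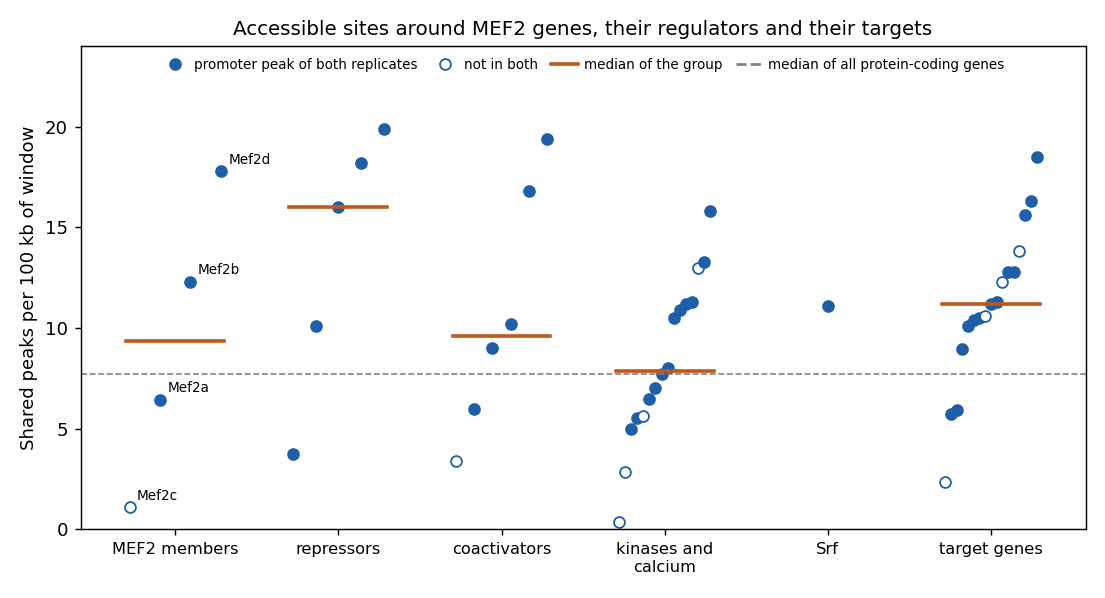
Shared peaks per 100 kb of window on the y axis for the 4 MEF2 genes and the 45 genes of the pathway list by role, each point 1 gene, filled where the promoter had a peak of both replicates. Orange bars are group medians and the dashed line is the median of all protein-coding genes, 7.70. All 5 repressors are filled, and Mef2c lies below every repressor and coactivator.

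MEF2 boxes in open promoters were found at 6 of the 36 open genes of the list (16.7%), against 1.72% of the 12547 open protein-coding genes. Targets made up 4 of the 6, Slc2a4, Jun, Nr4a1 and Klf2, out of 13 open targets (30.8%). Several of these genes are textbook targets because a MEF2 site was mapped in their promoters, so this share is partly built into the list. The other genes were Hdac5, which represses MEF2, and Ncoa2, a steroid receptor coactivator that also binds MEF2, out of 23 open genes with other roles. Over all protein-coding genes a MEF2 box lay from 250 bases before to 50 bases after 2.71% of the start sites, open or not.

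The peak over the Hdac5 box had values of 124 and 149, and the box lay from −26 to −17 bp of the start site. At Jun, a subunit of AP-1, the values were 126 and 143 and the box lay from −33 to −24 bp of the start. At Klf2, a zinc finger factor, they were 109 and 138, and the box lay from −89 to −80 bp of the start. These 3 peaks stood above 95% of peaks or more in each library. The Slc2a4 peak had 66 and 129 with the box from −408 to −399 bp of a start, the Nr4a1 peak had 47 and 106 with the box from −195 to −186 bp, and the Ncoa2 peak had 39 and 84 with the box from −186 to −177 bp. The sequences are shown on each gene's strand, with the box in capitals, from GRCm38 positions chr11:102230173-102230202 (Hdac5, minus), chr4:95052236-95052265 (Jun, minus), chr8:72318934-72318963 (Klf2, plus), chr11:69948577-69948606 (Slc2a4, minus), chr15:101254064-101254093 (Nr4a1, plus) and chr1:13151185-13151214 (Ncoa2, minus), to set the promoters of partners and targets beside the boxes of the MEF2 genes:
Hdac5: gggtctgagcCTATTTTTAGctcggggtcg
Jun: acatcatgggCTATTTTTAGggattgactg
Klf2: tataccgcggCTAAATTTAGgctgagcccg
Slc2a4: aacgtgggaaCTAAAAATAGccactccggg
Nr4a1: ccgggcgccgCTATTTTTAGcccattgatg
Ncoa2: aaaataaattTTAAAAATAAacataaagtc
The Slc2a4 box has the same core as the boxes at Mef2a, Mef2c and Mef2d on their own strands, and the Hdac5, Jun and Nr4a1 boxes have that core on the other strand. The Ncoa2 box is of the looser form.

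The genes whose windows were most like those of each member were found among genes with the same promoter state in both replicates, by the distance over 4 standardized log2 measures: window length, shared regions, and regions of replicate 1 and of replicate 2 alone. For Mef2a these were Hmbox1 (distance 0.0564), Ehmt1 (0.151) and Ate1 (0.186), and for Mef2d they were Spindoc (0.0607), D230025D16Rik (0.0613) and Bcl9l (0.133). For Mef2b they were Slc25a42 (0.214), Armc6 (0.243) and Cherp (0.244), of which Slc25a42 and Armc6 share part of the Mef2b window. The nearest to Mef2c were Hnf4g (0.254), Mgam (0.308) and 2900026A02Rik (0.382), with 3 to 5 shared peaks each. The likeness is one of counts in both libraries.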

How the data were processed

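DNase-seq of 2 libraries of adipocytes differentiated from 3T3-L1 was taken as deposited, on the mm10 assembly per the labels. Per the text lists deposited with the libraries, each region list came from 1 alignment file, without pooling. The authors deposited the peaks with a signal value from 1 to 150 on regions of 150 bp and the hotspots with the −log10 of a q-value, up to 100. The signal's scaling, the aligner, the caller and its filters were not given in the sources used here. Alignments were not used here, so the depth behind each value is unknown, and all intervals cover counting error only. Identical duplicate lines (20 and 33 of the peaks) were counted once, and regions off the 21 assembled chromosomes (337 and 603 peaks) were left out.

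Positions are counted from 1, with GENCODE M21 genes and sequence from the RefSeq copy of GRCm38. A shared peak was a merged interval, overlapping by at least 1 bp, with a peak of both replicates. A start site was open when a peak of each replicate lay within 1000 bp. Promoter peaks were those centred within 1000 bp of a protein-coding start. The 13 motifs were searched on both strands of the central 150 bp. The members, gene lists, motifs and naming rule were chosen with earlier results of these data known. The rule named the 4 members, genes starting in their windows, the 5 strongest shared peaks of each window, the 3 windows most like each, list genes without an open promoter and the 2 densest of each list. The other list genes with values were named for their role, and the box-bearing promoters, the peaks shown as sequence and the remaining peaks were picked after their values were seen. With 1 group there was no test between groups. Alternatives were the overlap, peak threshold, list length, region type, window, distance and each replicate alone. The procedures were tested on simulated data. Scripts used Python 3.11.15, numpy 2.4.6, pandas 2.3.3, scipy 1.17.1 and pysam 0.24.0.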

Additional observations from a re-analysis of the deposited data

How the results depend on the processing

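Of 45 alternatives over 6 counts, 34 stayed within 1.5 times the count reported and 11 did not. Taking the stronger 50% of each peak list left 11 shared peaks at Mef2a and 2 at Mef2c, and 1 shared peak with a MEF2 box in all windows. Hotspots in place of peaks gave 26 shared regions at Mef2d and, over all windows, 1 with a MEF2 box in its central 150 bp. Over their whole length, the hotspots of each replicate held 5 boxes. With flanks of 20 kb, Mef2a had 14 shared peaks, Mef2b 10 and Mef2d 23. Counting the peaks of 1 replicate alone gave 24 to 40 at Mef2a, 37 to 65 at Mef2b, 4 to 5 at Mef2c and 44 to 79 at Mef2d, with 9 to 10 open start sites and 2 to 3 peaks with a box. Each of these alternatives counts fewer or more regions by construction, and no other cause was tested. The order Mef2d, Mef2b, Mef2a, Mef2c in density held under all 6 alternatives that kept the 100 kb flanks. The ranks among all genes moved more. Mef2d stood above 86.7% of genes with hotspots, at 11.3 per 100 kb against 10.1 for Mef2b, and above 96.1% with replicate 2 alone. Mef2b stood above 77.6% with a reciprocal overlap of 50% and above 91.2% with replicate 2 alone. Open start sites numbered 9 at 250 or 500 bp and 11 at 2500 bp. No paired analysis was possible because there was 1 group. Without the depth, a missing peak cannot be told apart from one too weak to be called.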
